A study of Mus musculus with 22 samples.

Results

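The expression of 10 endothelial marker genes was examined in single-cell RNA libraries from mouse solid organs. The 10 genes were Plvap, Emcn, Esm1, Car4, Ednrb, Stab2, Lyve1, Vwf, Gja5 and Ackr1, chosen by name from the 31053 genes in the count tables because each is known for a particular organ, vessel type or position along the vessel tree. They were measured in endothelial barcodes, a barcode being the tag that stands for a single captured cell. A barcode of a tissue library was taken as endothelial where it held transcripts of at least 2 of 4 general endothelial genes (Pecam1, Cdh5, Cldn5 and Egfl7) and none of Ptprc, the pan-leukocyte gene, or Epcam, the epithelial gene. The rule kept 16434 of 143502 barcodes in 9 tissue libraries, and 21315 in all 11 tissue libraries. The series held 179929 barcodes in 22 libraries, the other 11 of which came from blood.

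The study asked what loss of Nalcn, which encodes a sodium leak channel, does to cells in solid organs and in the circulation. Every mouse carried Prom1-CreERT2 and Rosa26ZSG, a green reporter switched on by Cre, so the Nalcn-wt mice shared both alleles with the mutants. The tissue groups were Nalcn-wt (5 libraries), Nalcn-het (2 libraries) and Nalcn-null (2 libraries). A CreERT2 protein acts only when tamoxifen is given, and it is made only in cells that use the Prom1 promoter, which is not specific to endothelium. A Nalcn-null label therefore does not mean that every endothelial cell lost the gene. Nalcn-wt replicates 1 and 2 came from males of 571 days, replicate 3 from a male of 608 days, and replicates 4 and 5 from females of 611 and 654 days. Both Nalcn-het libraries came from males of 551 days. Nalcn-null replicate 2 came from a male of 552 days and Nalcn-null replicate 3 from a female of 611 days. The genotype of Nalcn-null replicate 3 was read from its strain label, and that of the other grouped tissue libraries from their titles. The mice were of mixed B6/FVB/N background. Kidney, liver, lung and stomach, with epididymis in males or uterus in females, were dissociated separately, tagged with antibody barcodes and pooled in each library. The assignment of barcodes to organs was not used here, so organ identity below rests on genes alone. The labels of the remaining 2 tissue libraries contradict each other on genotype, and both were left out of every comparison.

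Endothelium is a single cell layer that takes on a different form in each organ. Glomerular and peritubular capillaries of the kidney and sinusoids of the liver have windows, or fenestrae, through which plasma filters, whereas lung capillaries are closed and thin for gas exchange. In the lung, general capillary cells lie beside aerocytes, large cells spread over the air sacs. Along every vessel tree, arterial, capillary and venous cells use different genes, and lymphatic vessels have a programme of their own. The 10 genes fall into these roles: Plvap, Emcn and Esm1 are known for fenestrated or kidney capillaries, Car4 and Ednrb for aerocytes, Stab2 and Lyve1 for liver sinusoids (Lyve1 also for lymphatics), and Gja5, Vwf and Ackr1 for arteries, larger vessels and veins.

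Promoter sequences were available from RefSeq for 7 of the 10 genes (build GRCm38.p6, 250 bases before to 50 after each start site). The 4 shown belong to the aerocyte pair, Car4 and Ednrb, and to Stab2 and Ackr1, since genes of the same pair were found together, and genes of different pairs apart, within single barcodes. Capitals mark AGATAA, bound by GATA factors, and AGGTCA, bound by nuclear receptors, read on either strand; the motifs do not overlap.
Car4, chr11:84957504-84957803, plus strand: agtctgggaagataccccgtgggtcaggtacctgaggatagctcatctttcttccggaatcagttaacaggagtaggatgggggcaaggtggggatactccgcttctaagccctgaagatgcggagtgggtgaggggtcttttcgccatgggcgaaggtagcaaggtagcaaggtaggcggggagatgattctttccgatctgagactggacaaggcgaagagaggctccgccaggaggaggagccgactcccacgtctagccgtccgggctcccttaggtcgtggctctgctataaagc
Ednrb, chr14:103843652-103843951, minus strand: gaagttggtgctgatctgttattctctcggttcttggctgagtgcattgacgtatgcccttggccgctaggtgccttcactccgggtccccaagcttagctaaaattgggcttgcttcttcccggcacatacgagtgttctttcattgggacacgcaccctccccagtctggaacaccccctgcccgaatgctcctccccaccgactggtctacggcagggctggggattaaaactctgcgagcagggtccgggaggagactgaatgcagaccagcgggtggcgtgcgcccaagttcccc
Stab2, chr10:87007893-87008192, minus strand: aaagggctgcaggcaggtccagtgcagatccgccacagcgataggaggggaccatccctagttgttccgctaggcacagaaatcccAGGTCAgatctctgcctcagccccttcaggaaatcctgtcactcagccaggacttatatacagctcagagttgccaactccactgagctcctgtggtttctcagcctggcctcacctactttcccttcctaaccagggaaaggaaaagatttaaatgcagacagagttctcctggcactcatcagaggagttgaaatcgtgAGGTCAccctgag
Ackr1, chr1:173333454-173333753, minus strand: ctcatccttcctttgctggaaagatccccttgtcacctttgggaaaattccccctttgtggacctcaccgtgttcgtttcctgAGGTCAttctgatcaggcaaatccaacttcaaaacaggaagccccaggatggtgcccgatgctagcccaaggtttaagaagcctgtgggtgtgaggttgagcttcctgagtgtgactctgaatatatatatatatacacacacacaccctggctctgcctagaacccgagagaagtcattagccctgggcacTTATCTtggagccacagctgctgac
Neither motif was present in the Car4 or Ednrb window. The Stab2 window held 2 copies of AGGTCA and the Ackr1 window 1 copy of AGGTCA and 1 of AGATAA, the latter printed as its reverse complement. AGGTCA was not particular to these genes, since the window of Emcn, a kidney capillary gene, also held 2 copies. The Esm1 and Gja5 windows held neither motif. Of all 32851 promoters of the same length, 16.3% held AGGTCA and 11.2% held AGATAA. The GGAA motif, the core bound by ETS factors, was present in all 7 windows and in 96.0% of all promoters. These matches describe letters in a window and do not show binding.

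Depth and quality differed between libraries. The 9 libraries held 132 to 3507 endothelial barcodes each (6.78 to 17.0% of a library), with medians of 918.5 to 3175.5 unique transcripts, or UMIs, per barcode. Nalcn-wt replicate 5 stood apart, with 132 endothelial barcodes, a median mitochondrial share of 46.0% against 13.3 to 26.2% in the other 8 libraries, and 18 barcodes that passed limits of 200 genes or more and 25% mitochondrial UMIs or less. Nalcn-null replicate 3, labelled female, held Xist at 1291 CPM (UMIs per 1000000 UMIs) but also Y-linked genes at 11.7 CPM, against 0 and 0.437 CPM in the other 2 female libraries and 193 to 221 CPM in the 6 male ones. Its Xist level was in the female range, 946 to 1526 CPM in the other 2. It also held the 4 listed epididymal genes at 513 CPM, although epididymis is a male organ. Libraries shared between 3 and 226 barcode sequences per pair, at most 0.900% of the smaller library. Other cells' transcripts were present in endothelial barcodes: hemoglobin genes summed to 2521 to 22202 CPM and proximal tubule genes to 312 to 1667 CPM. Nalcn itself checked no label at this depth: 74 of its UMIs were counted over all barcodes of the 9 libraries, 39 in wild-type, 11 in heterozygous and 24 in null libraries, of which 8 lay in endothelial barcodes. Per library this was 0 to 0.204 CPM in wild type and 0.272 and 0.386 CPM in null libraries, so Nalcn transcripts were not lower under the null label. Reads from the 3′ end need not include the deleted part of the gene. All 8 general endothelial genes outside the rule were detected, and at least 1 of them was found in 81.8 to 97.9% of endothelial barcodes per library.

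Levels are given as CPM, the UMIs of a gene per 1000000 UMIs summed over the endothelial barcodes of a library. They count the 3′ ends of transcripts and are not divided by gene length. Detection is given as the share of barcodes with at least 1 UMI after each barcode was thinned to 1000 UMIs, which left out 3080 shallower barcodes. Without thinning, the share over all 9 libraries ran from 1.06% for Ackr1 and 2.95% for Gja5 to 43.4% for Plvap and 44.9% for Emcn. In all, the 10 genes took 86728 UMIs. Shares as deposited had exact 95% Clopper-Pearson intervals no wider than 8.76 points on either side. These intervals cover counting error only. A lower CPM in a pooled organ suspension can come from fewer cells of a type or from less RNA per cell, and these cannot be told apart.

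Plvap encodes the protein of the diaphragms that span fenestrae and caveolae (chromosome 8, 71497765 to 71511752, minus strand, GRCm38). Its level was 856, 517, 481, 385 and 367 CPM in Nalcn-wt replicates 1 to 5, 558 and 663 CPM in the Nalcn-het libraries, and 253 and 397 CPM in the Nalcn-null libraries. Nalcn-null replicate 2 was the lowest of the 9, and Nalcn-null replicate 3 lay inside the wild-type range. The mean was 497 ± 180 CPM (SD, n = 9), and 32.0 ± 10.00% of thinned barcodes held a UMI (SD, n = 9).

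Emcn encodes endomucin, a sialoglycoprotein of capillary and venous endothelium (chromosome 3, 137341067 to 137432185, plus strand). It stood at 726, 536, 572, 507 and 786 CPM in the wild-type libraries, 503 and 875 CPM in the heterozygous libraries, and 332 and 396 CPM in the null libraries. Both null libraries were below all 7 others. Its mean of 581 ± 180 CPM (SD, n = 9) went with detection in 35.2 ± 9.84% of thinned barcodes (SD, n = 9).

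Esm1 encodes endocan, a secreted proteoglycan made by kidney capillaries and by tip cells, the leading cells of vascular sprouts (chromosome 13, 113209659 to 113218098, plus strand). Its level was 369, 166, 176, 81.7 and 194 CPM in the wild-type libraries, 184 and 430 CPM in the heterozygous libraries, and 80.1 and 82.9 CPM in the null libraries. The null libraries lay beside Nalcn-wt replicate 4 and under the other 6. The mean was 196 ± 125 CPM (SD, n = 9), a 5.37-fold span from lowest to highest library.

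Car4 encodes carbonic anhydrase 4, anchored to the surface of aerocytes, where it handles carbon dioxide (chromosome 11, 84957786 to 84966044, plus strand). It stood at 164, 144, 111, 117 and 96.9 CPM in the wild-type libraries, 260 and 94.3 CPM in the heterozygous libraries, and 204 and 245 CPM in the null libraries. Both null libraries lay above all 5 wild-type libraries, while the heterozygous libraries were the highest and the lowest of the 9. The mean was 160 ± 63.2 CPM (SD, n = 9).

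Ednrb encodes the B-type endothelin receptor (chromosome 14, 103814625 to 103844402, minus strand). Its values were 254, 232, 231, 138 and 239 CPM in the wild-type libraries, 346 and 270 CPM in the heterozygous libraries, and 184 and 220 CPM in the null libraries. This was the steadiest of the 10 genes, with a mean of 235 ± 57.2 CPM (SD, n = 9) and a 2.51-fold span. Both heterozygous libraries were above all wild-type and null libraries.

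Stab2 encodes stabilin-2, the scavenger receptor with which liver sinusoids clear hyaluronan (chromosome 10, 86841198 to 87008025, minus strand). It stood at 48.3, 2.94, 104, 14.8 and 32.3 CPM in the wild-type libraries, 23.1 and 99.3 CPM in the heterozygous libraries, and 6.49 and 64.2 CPM in the null libraries. Its 35.4-fold span was the widest among the 9 genes detected in all 9 libraries, and every genotype held both a low and a high library. The summed liver sinusoid genes other than the members also varied widely, from 167 CPM in Nalcn-wt replicate 2 to 2092 CPM in Nalcn-het replicate 2.

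Lyve1 encodes a hyaluronan receptor (chromosome 7, 110850607 to 110863239, minus strand). Its level was 90.6, 66.8, 261, 289 and 58.9 CPM in the wild-type libraries, 301 and 181 CPM in the heterozygous libraries, and 168 and 198 CPM in the null libraries. The wild-type libraries split into replicates 3 and 4, at 261 CPM or more, and replicates 1, 2 and 5, at 90.6 CPM or less. The mean was 179 ± 93.0 CPM (SD, n = 9).

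Vwf encodes von Willebrand factor, the clotting glycoprotein stored in endothelial granules (chromosome 6, 125546774 to 125686679, plus strand). It stood at 109, 103, 208, 235 and 34.2 CPM in the wild-type libraries, 247 and 138 CPM in the heterozygous libraries, and 233 and 224 CPM in the null libraries. The 34.2 CPM of Nalcn-wt replicate 5 rested on 18 UMIs in 10 barcodes. The mean was 170 ± 76.1 CPM (SD, n = 9).

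Gja5 encodes connexin 40, the gap junction protein of arterial endothelium (chromosome 3, 96904693 to 97077416, plus strand). Its values were 20.9, 14.7, 22.6, 26.0 and 5.70 CPM in the wild-type libraries, 18.3 and 20.004 CPM in the heterozygous libraries, and 20.2 and 19.1 CPM in the null libraries. The 5.70 CPM in Nalcn-wt replicate 5 came from 3 UMIs in 1 barcode, and the other 8 libraries lay between 14.7 and 26.0 CPM. In the thinned barcodes 1.53 ± 0.579% held a UMI (SD, n = 9).

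Ackr1 encodes the atypical chemokine receptor that marks venules (chromosome 1, 173331886 to 173333750, minus strand). It overlaps Cadm3 on the same strand, so the assignment of its reads is uncertain. It stood at 5.66, 0.474, 16.4, 3.93 and 0 CPM in the wild-type libraries, 9.49 and 16.4 CPM in the heterozygous libraries, and 5.05 and 4.05 CPM in the null libraries. Only 243 UMIs in 175 barcodes were counted over all 9 libraries. Its mean was 6.83 ± 6.11 CPM (SD, n = 9), so the spread was about as large as the level.

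**Figure D1:**
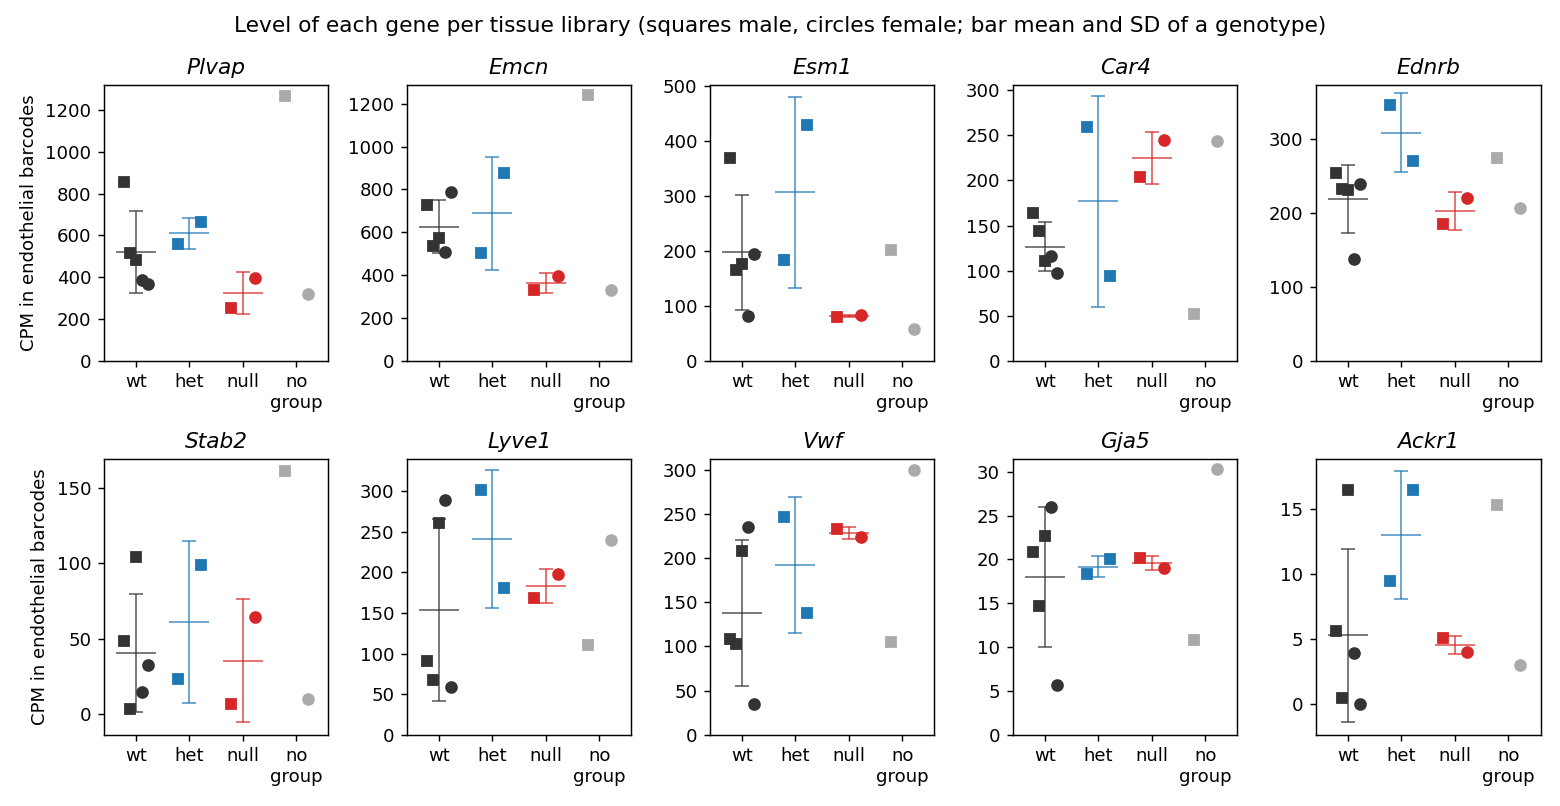
Level of each of the 10 genes in endothelial barcodes, one panel per gene, with CPM on the vertical axis and one point per library (squares male, circles female, grey the 2 libraries without a group), and with the mean and SD of each genotype as a bar. The Nalcn-null points for Emcn (332 and 396 CPM) lie below the 5 wild-type points and those for Car4 (204 and 245 CPM) above them, whereas Stab2 spreads from 2.94 to 104 CPM within wild type.

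To see how far the genes belong to endothelium, the same values were taken in other cell classes of the same libraries, each defined by at least 2 of its own marker genes (for epithelium, Epcam and 1 more) and no general endothelial gene. B cells should lack all 10 genes, and their values were taken as a background from free RNA. Because their barcodes had to hold no general endothelial gene, these values are a low estimate of it. Their median depths of 819.5 to 3327 UMIs covered nearly the range of endothelial barcodes. Plvap reached 6.34 ± 4.96 CPM in B cells (SD, n = 9), and 0.707% of their thinned barcodes held it (1.09% unthinned). Mean endothelial CPM exceeded the B cell mean by 6.82-fold for Car4 and 16.0-fold for Ackr1. For the other 8 genes the ratio ran from 32.2-fold for Vwf to 83.1-fold for Lyve1. In 13686 B cell barcodes taken with no rule on endothelial genes, a choice made after the data were seen, Plvap reached 35.2 ± 12.0 CPM (SD, n = 9), and the 10 ratios ran from 5.04-fold for Car4 to 19.7-fold for Gja5.

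Some of the genes were also found outside endothelium. Ednrb stood at 186 ± 130 CPM in mural cells, the contractile cells around vessels (SD, n = 8 libraries with at least 20 such barcodes), and was lower there than in endothelium in 6 of 8 libraries. Ackr1 stood at 13.8 ± 8.03 CPM in fibroblasts (SD, n = 8) and was lower there than in endothelium in only 3 of 8 libraries. Gja5 reached 15.3 ± 22.8 CPM in mural cells (SD, n = 8), a spread larger than the mean, and 11.8 ± 9.69 CPM in fibroblasts (SD, n = 8). In endothelium it stood at 18.6 ± 5.73 CPM (SD, n = 9), so its mean level differed little between these classes. It was lower than in endothelium in 6 of 8 libraries for mural cells and 7 of 8 for fibroblasts. Unthinned, the mean share of mural barcodes with Ednrb was 22.04%, beside 25.7% of endothelial barcodes. Car4 stood at 46.7 ± 15.1 CPM in proximal tubule barcodes of the kidney, against 23.4 ± 15.9 CPM in B cells (SD, n = 9). In all barcodes outside the endothelial set Car4 stood at 48.6 ± 22.4 CPM (SD, n = 9). Those barcodes may hold general endothelial genes, which tubule and B cell barcodes may not. Plvap was 34.0 CPM in them and 5.91 CPM in proximal tubule barcodes, so their Car4 level is no like background for the tubule.

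Lyve1 in macrophages depended on 1 library. It was 372 CPM in Nalcn-wt replicate 5, where 64 of 196 macrophage barcodes held it, and 2.99 to 23.8 CPM in the other 8 libraries. That replicate had the lowest Lyve1 level in endothelial barcodes, 58.9 CPM.

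**Figure D2:**
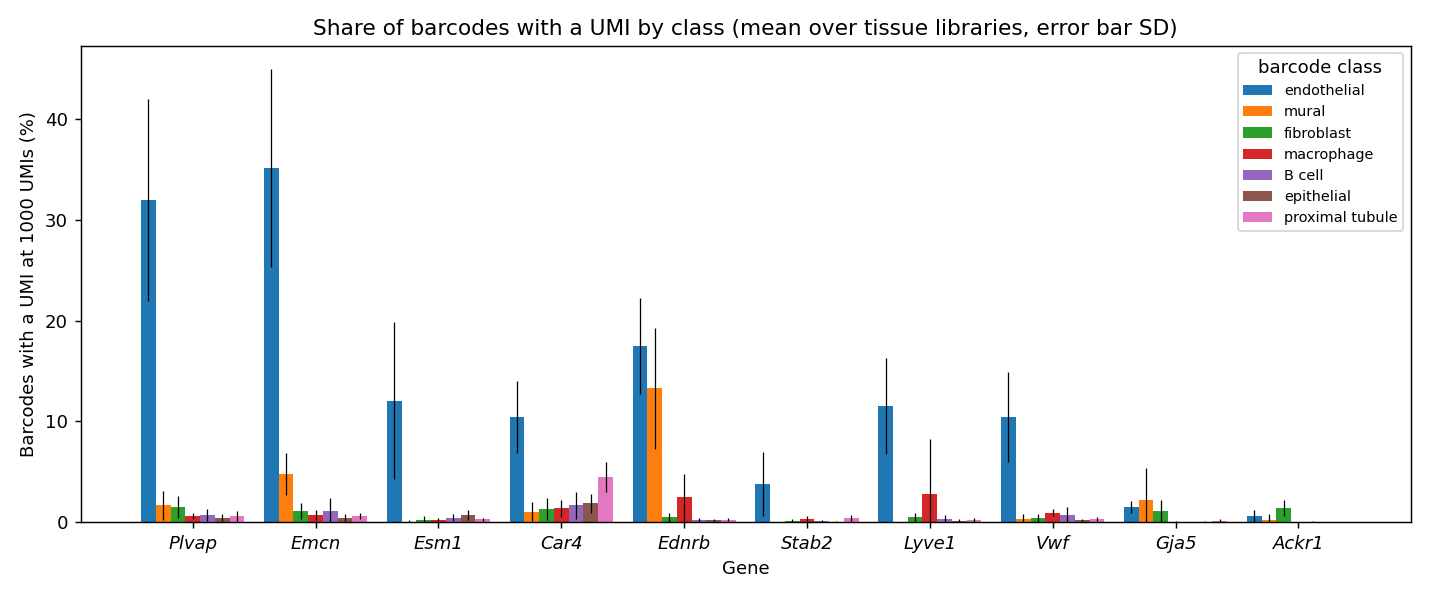
Mean share of barcodes with a UMI of each gene, in percent and after thinning to 1000 UMIs, in endothelial barcodes and in other cell classes, as bars with the SD over libraries. Endothelial barcodes have the highest share for Plvap (32.0%) and Emcn (35.2%), while Ednrb is also found in mural barcodes (13.3%).

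The organ and vessel identity of the barcodes was then read from lists of other genes. A barcode was assigned to a list where it held at least 2 of the list's genes, the 10 members left out. The sets overlap, since between 57.6 and 94.1% of the barcodes of a set also belonged to another set. They come from the same cells and libraries as the members, so the values are descriptions with no test.

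The kidney list (Ehd3, Gata5, Tbx3, Igfbp5 and Slc14a1) took 2352 barcodes. In them Emcn averaged 1250 ± 259 CPM, against 429 ± 120 CPM in the remaining endothelial barcodes (SD, n = 9). Esm1 was 3.84-fold, Emcn 2.92-fold, Plvap 2.19-fold and Ednrb 1.74-fold as high as in the rest, and each was higher in all 9 libraries. Lyve1, Vwf and Stab2 were lower in the kidney set than in the rest in all 9 libraries.

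The aerocyte list (Apln, Fibin, Tbx2, Emp2, Chst1 and Prx) took 2309 barcodes. Car4 averaged 584 ± 167 CPM in them and 56.8 ± 30.6 CPM in the rest (SD, n = 9), a ratio of 10.3. Ednrb averaged 525.5 ± 92.1 CPM against 167 ± 49.0 CPM (SD, n = 9), a ratio of 3.14. Esm1 went the other way, at 0.127 of its level in the rest, and Plvap, Emcn and Stab2 were also below the rest in all 9 libraries. The aerocyte set held 73.4% of all Car4 UMIs and 48.3% of all Ednrb UMIs. Ednrb was thus above the rest in both the kidney and the aerocyte set.

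The liver sinusoid list (Stab1, Clec4g, Fcgr2b, Mrc1, Oit3, Dnase1l3, Bmp2, Gata4 and F8) took 2004 barcodes, from 2.67% of endothelial barcodes in Nalcn-null replicate 2 to 30.4% in Nalcn-het replicate 2. Stab2 averaged 224 ± 152 CPM in them and 1.69 ± 1.09 CPM in all other endothelial barcodes (SD, n = 9), and 1490 of its 1562 UMIs were in this set. Ackr1, a venular marker, followed the same set, at 37.5 ± 36.4 CPM against 1.38 ± 1.23 CPM (SD, n = 9), was higher there in 7 of 9 libraries and had 79.4% of its UMIs in the set. Lyve1 was 1.64-fold as high in the set as in the rest, and higher in 6 of 9 libraries, a weaker separation than that of Stab2.

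Lyve1 was highest in the lymphatic set (at least 2 of Prox1, Pdpn, Flt4, Mmrn1 and Reln), which held 228 barcodes. There it averaged 1631 ± 708 CPM against 173 ± 66.5 CPM in the rest (SD, n = 7 libraries with at least 10 such barcodes). That set made up at most 2.56% of endothelial barcodes in a library and held 15.5% of all Lyve1 UMIs. Lyve1 and Vwf were both higher in the lung general capillary set than in the rest in all 9 libraries, by 1.93-fold and 2.12-fold. This set (Gpihbp1, Cd93, Aplnr, Kit and Tmem100) took 7516 barcodes, from 30.7 to 59.8% of the endothelial barcodes of a library. It also held 54.8% of all Stab2 UMIs and 58.4% of all Ackr1 UMIs, so the name of the list does not fix the organ of these barcodes.

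The vein list (Nr2f2, Vcam1, Selp, Sele, Ephb4, Slc6a2 and Prss23) took 2386 barcodes. Vwf averaged 420 ± 256 CPM in them and 108 ± 51.0 CPM in the rest (SD, n = 9), and was higher in the set in 8 of 9 libraries. The exception was Nalcn-wt replicate 5, with 24.9 CPM in 23 barcodes. Lyve1 was 2.90-fold as high in the vein set in all 9 libraries, and Ackr1 5.24-fold as high in 8 of 9. The artery list (Gja4, Sox17, Hey1, Bmx, Sema3g, Efnb2, Dll4, Fbln5 and Cxcl12) took 6331 barcodes, in which Gja5 averaged 31.1 ± 10.2 CPM against 6.56 ± 5.30 CPM (SD, n = 9), higher in all 9 libraries. The tip cell list (Apln, Angpt2, Kcne3, Pgf and Cxcr4) took 166 barcodes. Esm1 was 0.673 of its level in the rest there, and lower in the set in all 6 libraries with at least 10 such barcodes.

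**Figure D3:**
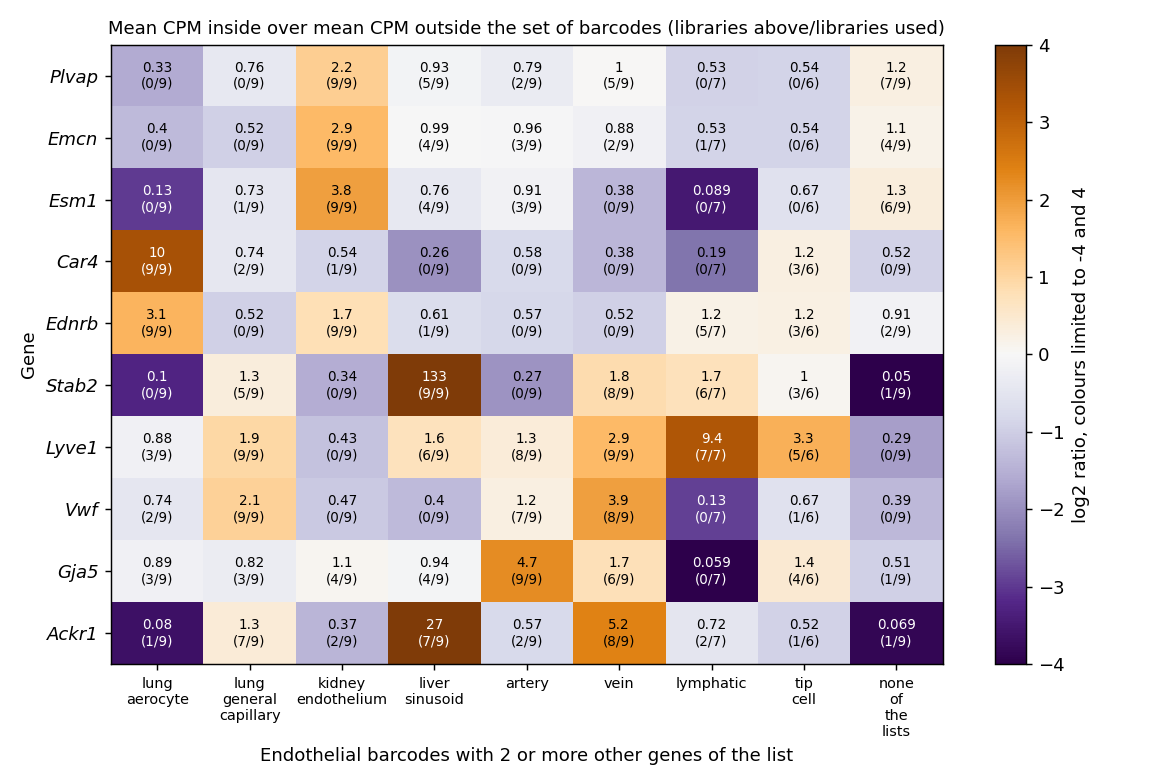
Mean CPM of each gene in endothelial barcodes that hold at least 2 genes of a list (columns) over that in the remaining endothelial barcodes, printed as a ratio with the number of libraries in which the set was higher, and coloured on a log2 scale. Car4 stands at 10.3 in the aerocyte set, Stab2 at 132.5 in the sinusoid set and Lyve1 at 9.41 in the lymphatic set.

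Co-detection of the members within single barcodes was compared with the number that independence would give in the same library, after thinning to 1000 UMIs. A ratio above 1 means that 2 genes were found together more often than independent genes would be. Of the 45 pairs, 8 lay above 1 in every library, 21 below 1 in every library and 16 on both sides. Car4 and Ednrb had the highest ratio of the pairs above 1 in all 9 libraries, with a median of 2.43 (range 2.24 to 3.09), next to 2.42 for Vwf and Gja5. The order of the pairs changed with the summary used: from sums over all libraries without thinning, the ratio was 2.66 for Vwf and Gja5, 2.16 for Lyve1 and Vwf and 1.94 for Car4 and Ednrb. In all 9 libraries together 667 thinned barcodes held both Car4 and Ednrb, against 260 from independence.

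Of the pairs with Esm1, the median ratio was 2.25 for Esm1 and Ednrb (1.46 to 2.44), 2.15 for Emcn and Esm1 (1.65 to 3.26) and 2.14 for Plvap and Esm1 (1.63 to 2.88). The ratios of Vwf and Gja5, which mark large vessels, had a range of 2.35 to 23.9, and only 3 libraries had 3 or more barcodes from independence. Lyve1 and Vwf had a median of 2.09 (1.83 to 3.57). Thus Ednrb was found with Car4 and with Esm1, yet Esm1 and Car4 avoided each other, with a median of 0.154 (0.058 to 0.335).

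Other pairs that lay below 1 in every library joined different organs or vessel types. The median was 0.0815 for Stab2 and Vwf, 0.0662 for Ednrb and Stab2 and 0.201 for Esm1 and Vwf. For Car4 and Ackr1 it was 0.0325 (8 libraries), with 7.77 barcodes from independence in all and 1.38 found. Stab2 and Gja5 had a median of 0, with 7.08 barcodes from independence in all 9 libraries together and 0.586 found. In neither of these last 2 pairs did any library reach 3 from independence, so both are limited by depth. Stab2 and Ackr1 were found together above independence in 7 of 8 libraries, with a median of 7.67. Their 27.4 barcodes against 4.42 from independence are few, and no library reached 3 from independence. Stab2 and Lyve1, both sinusoidal genes, had a median of 1.66 and lay above 1 in 8 of 9 libraries.

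**Figure D4:**
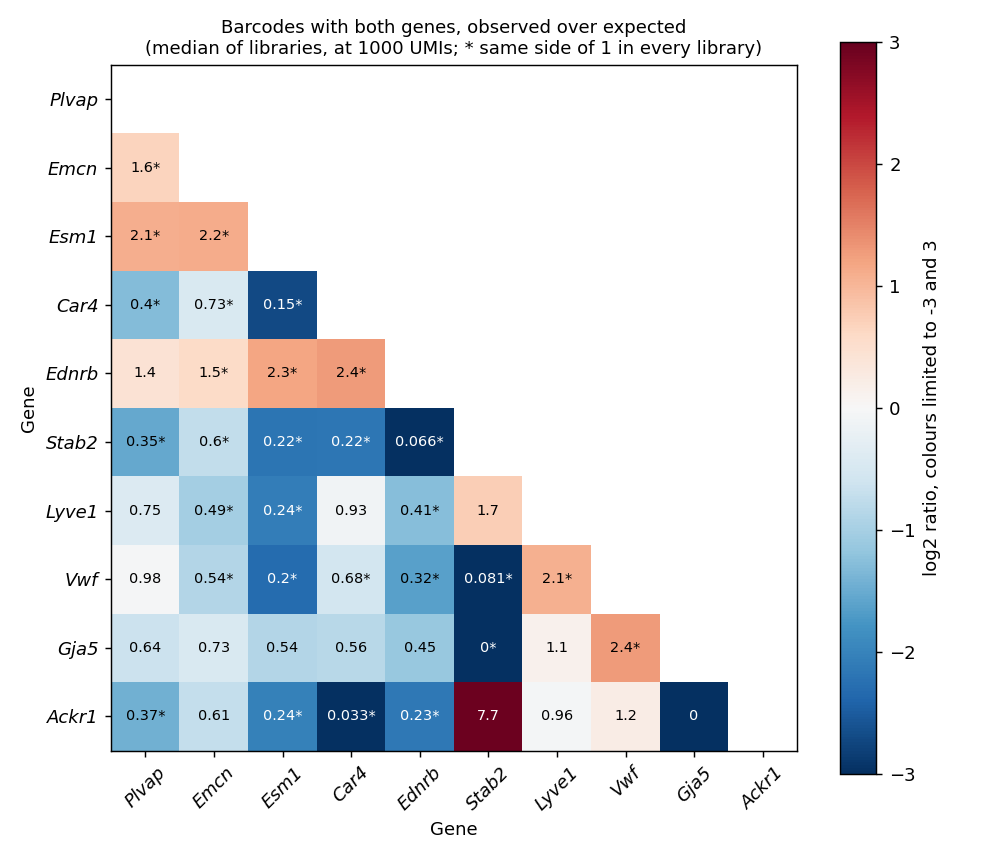
Median over libraries of the ratio of barcodes with both genes to the number from independence, for the 45 pairs of the 10 genes, coloured on a log2 scale, with a star where all libraries lay on the same side of 1. Car4 and Ednrb (2.43), Esm1 and Ednrb (2.25) and Lyve1 and Vwf (2.09) are above 1, and Esm1 and Car4 (0.154) below it.

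The genes most like each member were found by Pearson correlation over endothelial barcodes within a library, averaged with equal weight over the 9 libraries (8 where Ackr1 or Slc6a2 is in the pair), among genes found in at least 1% of the barcodes. Barcodes of a library share its depth and its pool of free RNA, so the correlations are descriptions. Plvap, Emcn and Esm1 shared Igfbp5 and Rsad2 among their 5 most similar genes, with mean r of 0.53, 0.59 and 0.54 for Igfbp5. Car4 was closest to Emp2 (0.57), Fibin (0.48) and Chst1 (0.45), 3 genes of the aerocyte list. Ednrb was closest to Kdr (0.40), the main VEGF receptor, followed by Car4 (0.36). Stab2 was closest to Dnase1l3, Clec4g and Fcgr2b (0.60, 0.59 and 0.59).

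The remaining members had weaker partners. Lyve1 was closest to Vwf at a mean r of 0.24, and Vwf to the venous gene Slc6a2 at 0.37. Gja5 had its highest mean r with Spon1 at 0.24, which rests on Nalcn-wt replicate 5, the library of 132 endothelial barcodes, at 0.88. Without that library, a value added after the data were seen, the mean was 0.16. The 4 genes closest to Ackr1 were Clec4g, Bmp2, Dnase1l3 and Fcgr2b (0.26, 0.24, 0.23 and 0.21), all of which were also among the 5 closest to Stab2. For genes as sparse as Gja5 and Ackr1 such values are small.

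The genotypes were compared on UMIs summed over the endothelial barcodes of each library, with edgeR's quasi-likelihood test over 13107 genes and sex as a covariate. Sex and age show that the null libraries, and Nalcn-wt replicates 3, 4 and 5, came from separate mice. The labels do not say so for Nalcn-wt replicates 1 and 2 or for the heterozygous libraries, where the spread may be technical. Between Nalcn-null and Nalcn-wt libraries, 7 genes passed an adjusted p of 0.05 (Benjamini-Hochberg), or 0.0534% of those tested. This count was not stable: it was 0 without Nalcn-wt replicate 2, 3, 4 or 5 or either Nalcn-het library, 1 without either Nalcn-null library, 13 without Nalcn-wt replicate 1, 0 with barcodes that held 3 of the 4 general endothelial genes, 0 with the replicate number as a block, 30 with no filter on low counts and 32 by DESeq2. None of the 10 members was among them, by edgeR or in any of 17 alternative analyses, which include DESeq2. Of the members, 3 were higher and 7 lower in null libraries, with a median log2 change of −0.13 beside 0.01 over all genes. At an unadjusted p under 0.05 edgeR counted 4 of the 10 members, against 4.88% of all genes, and all 4 had an adjusted p of 0.921. The 640 genes behind the 4.88% became 1092 without Nalcn-wt replicate 4 and 471 without Nalcn-wt replicate 1.

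These 4 were Plvap, Emcn and Esm1, known for fenestrated or kidney capillaries, and the aerocyte gene Car4. The kidney set held 38.1% of Plvap, 41.7% of Emcn and 52.8% of Esm1 UMIs. The artery set, which overlaps it, held 47.3, 49.7 and 51.9% in the same order, so these genes were not confined to the kidney set. The edgeR log2 change was −0.93 (SE 0.33, unadjusted p = 0.0192) for Emcn, −1.27 (SE 0.54, unadjusted p = 0.0423) for Esm1, −0.70 (SE 0.31, unadjusted p = 0.0490) for Plvap and 0.76 (SE 0.33, unadjusted p = 0.0491) for Car4. None passed the correction. CPM did not overlap between null and wild-type libraries for Emcn and Car4, 2 of 10 members, while 9.01% of all genes did not overlap. Plvap and Esm1 overlapped.

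The 4 values also depended on single libraries. Without Nalcn-null replicate 3, which held Y-linked and epididymal transcripts under a female label, the log2 change by edgeR was −0.88 for Emcn, −1.54 for Esm1, −1.27 for Plvap and 0.55 for Car4, and only Plvap kept an unadjusted p under 0.05. Without Nalcn-null replicate 2 it was −0.99, −0.99, −0.16 and 0.98, in the same order, and none had an unadjusted p under 0.05. Without Nalcn-wt replicate 5 it was −0.68, −0.88, −0.73 and 0.75, and only Emcn had one. The direction of all 4 was the same in these 3 fits.

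Values of the kidney and aerocyte lists stand beside these. The kidney set was 4.70 and 8.73% of endothelial barcodes in the null libraries and 9.79 to 31.9% in the wild-type libraries, and the aerocyte set 10.3 and 15.7% against 8.67 to 17.4%. These shares depend on depth, since 2 genes must be detected, and Nalcn-null replicate 2 was the shallowest library, with 43.5% of its endothelial barcodes in none of the sets against 12.5 to 26.3% in wild type. After thinning to 1000 UMIs, a step chosen after the data were seen, the kidney set was 2.79 and 5.00% in null and 6.66 to 16.2% in wild-type libraries, and the aerocyte set 10.8 and 9.44% against 2.27 to 8.04%. Thinning left out 697 of the 1234 endothelial barcodes of Nalcn-null replicate 2, and the lowest aerocyte share rests on 3 of 132 barcodes of Nalcn-wt replicate 5. Summed kidney list genes stood at 1011 and 1093 CPM in the null libraries and at 1592 to 3370 CPM in wild type. Most of this sum was Igfbp5, which averaged 1655 CPM over the 9 libraries, beside 2049 CPM for the list. Its edgeR log2 change was −1.52 (SE 0.40, adjusted p = 0.882), so the sum and this gene are not separate observations. Of the 5 genes of the list, 2 had log2 changes above 0 and 3 below 0. Summed aerocyte list genes other than the members stood at 580 and 678 CPM in the null libraries and 298 to 453 CPM in wild type, and Emp2 had a log2 change of 0.74 (SE 0.27, adjusted p = 0.921). The part of this makeup in the members' values was not tested by the fit across genes.

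Within the kidney set the null libraries, with 58 and 306 barcodes, overlapped the wild-type libraries. Emcn stood at 1295 and 1109 CPM there in null and 886 to 1586 CPM in wild-type libraries, Plvap at 613 and 746 against 607 to 1128 CPM, and Esm1 at 432 and 312 against 262 to 594 CPM. All 3 overlapped. Within the aerocyte set Car4 did not overlap: it stood at 872 and 826 CPM in the null libraries, from 127 and 549 barcodes, and at 491, 545, 554, 474 and 405 CPM in wild-type replicates 1 to 5. In the same barcodes 5.82% of the 17883 genes with a UMI did not overlap between null and wild type, and 8.88% of the 2614 genes with a mean of at least 0.1 of that of Car4. Most of these were higher in null, as Car4 was: 782 of 1040 genes in the first count and 197 of 232 in the second. The heterozygous libraries had Car4 at 656 and 437 CPM. Ednrb overlapped in the same set, at 545 and 631 CPM in null and 375 to 620 CPM in wild-type libraries. These within-set values were looked at after the whole-endothelium values were known and were given no test.

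**Figure D5:**
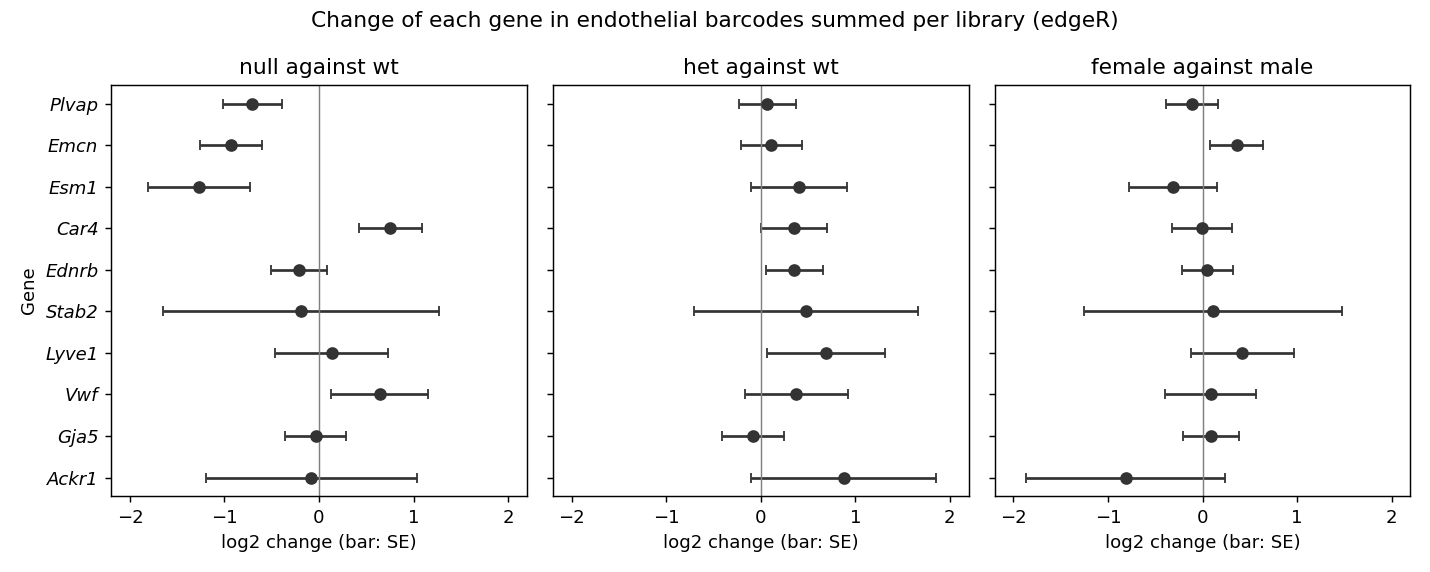
Log2 change of each of the 10 genes by edgeR, null against wild type, heterozygous against wild type and female against male, with points at the estimate and bars of 1 SE. In the null comparison Emcn (−0.93), Esm1 (−1.27) and Plvap (−0.70) lie below 0 and Car4 (0.76) above it, and no gene passed an adjusted p of 0.05.

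For the other 6 members no unadjusted p of the null comparison was under 0.05. Ednrb had a log2 change of −0.22 (SE 0.30), Gja5 of −0.03 (SE 0.32) and Vwf of 0.64 (SE 0.51). Lyve1 stood at 0.14 (SE 0.60), Stab2 at −0.19 (SE 1.46) and Ackr1 at −0.08 (SE 1.12). The standard errors of Stab2 and Ackr1, above 1 on the log2 scale, limit how small a difference these libraries could resolve.

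None of the genes of the endothelial lists was called either. For the null comparison the median log2 change was −0.79 over 5 kidney genes, 0.52 over 8 aerocyte genes, 0.36 over 5 lung general capillary genes and −0.13 over 11 liver sinusoid genes, members included, beside 0.01 over all genes. It was 0.04 over 10 artery genes, −0.08 over 9 vein genes and −0.33 over 6 tip cell genes. The 8 general endothelial genes outside the rule all had log2 changes below 0 (median −0.31), and the 4 genes of the rule all above 0 (0.30). The barcodes were chosen by the 4 genes of the rule, so the level of these 4 is partly set by it and the 2 lists are not alike. Lists of other cells also stood apart from 0, with no proximal tubule, alveolar type 2, hepatocyte or erythroid gene called. The median was −0.52 for proximal tubule genes (4 of 4 below 0) and −1.39 for erythroid genes (4 of 4 below 0), and 1.05 for alveolar type 2 genes (3 of 3 above 0) and 1.44 for hepatocyte genes (3 of 3 above 0). The summed levels of these 4 lists overlapped between groups: proximal tubule genes stood at 475 and 616 CPM in null against 312 to 1667 CPM in wild-type libraries, erythroid genes at 3966 and 2521 against 3101 to 22202 CPM, alveolar type 2 genes at 628 and 188 against 15.2 to 530 CPM, and hepatocyte genes at 462 and 479 against 42.1 to 483 CPM. Further lists of other cells had no gene called. Their median was 1.03 for mesothelial (3 of 3 above 0), 0.89 for platelet (2 of 3) and 0.42 for fibroblast genes (2 of 4). It was 0.29 for epithelial (3 of 3 above 0) and 0.11 for T cell genes (4 of 4). For macrophage genes it was −0.32 (5 of 5 below 0), for mural genes −0.34 (3 of 4) and for B cell genes −0.04 (2 of 4). The genes that did pass include Defb20, Cst12 and Cst11, epididymal genes with log2 changes of 6.88 (SE 0.84), 6.74 (SE 0.78) and 6.74 (SE 0.71) by edgeR. The summed epididymal list was 724 and 513 CPM in the null libraries and 0 to 193 CPM in wild type, and the part of these lists in the members' values was not tested. These calls are among those that end in the fits with 0 genes called.

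Between Nalcn-het and Nalcn-wt libraries edgeR called 0 genes (0% of those tested), with 1015 at an unadjusted p under 0.05, and DESeq2 called 17. The 1015 became 450 without Nalcn-wt replicate 2 and 1469 without Nalcn-wt replicate 3. Of the members, 9 were higher and 1 lower, with a median log2 change of 0.37 beside −0.02 over all genes. Other endothelial lists stood higher too, with no gene called. The median was 0.28 over the 8 general genes outside the rule (8 of 8 above 0). It was 0.85 over 11 sinusoid genes (11 of 11), which include the members Stab2 and Lyve1. Over the 4 genes of the rule it was 0.24 (4 of 4), but the barcodes were chosen by these genes, so this is not a separate observation. Lists of other cells lay on both sides. The median was above 0 for hepatocyte (0.45, 3 of 3 genes), epididymal (0.70, 3 of 4) and mesothelial genes (0.37, 2 of 3). It was below 0 for the other 10 lists, among them −2.32 for T cell, −1.69 for macrophage, −1.42 for proximal tubule and −1.76 for alveolar type 2 genes, these 4 with all of their genes below 0. T cell genes summed to 8.51 and 5.36 CPM in the heterozygous libraries against 10.6 to 54.3 CPM in wild type, and macrophage genes to 47.0 and 49.7 against 63.3 to 302 CPM, without overlap. Proximal tubule genes, at 396 and 429 against 312 to 1667 CPM, and alveolar type 2 genes, at 87.2 and 16.1 against 15.2 to 530 CPM, overlapped. The part of these lists in the members' values was not tested. The lowest adjusted p of a member by edgeR was 0.802, for Ednrb, with a log2 change of 0.35 (SE 0.30). Ednrb was the only member whose groups did not overlap, against 12.3% of all genes. No member had an unadjusted p under 0.05, against 7.74% of all genes. The null and heterozygous comparisons share their wild-type libraries.

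The last comparison was of 3 female against 6 male libraries, in which the reproductive organ in the pool and the sex of the mouse cannot be told apart. By edgeR 5 genes were called, 0.0381% of those tested. The X-inactivation transcript Xist (log2 change 12.7) and its antisense partner Tsix (5.91) were higher in females, and the Y-linked genes Eif2s3y, Kdm5d and Uty were lower. No member was called. Of the members 6 were higher and 4 lower in females, with a median log2 change of 0.07 beside −0.02 over all genes, and the lowest adjusted p by edgeR was 0.923, for Emcn (log2 change 0.36, SE 0.28). No member had an unadjusted p under 0.05 or groups that did not overlap, against 3.99% and 1.64% of all genes. The 523 genes behind the 3.99% became 1322 without Nalcn-null replicate 2, 1293 without Nalcn-null replicate 3 and 273 without Nalcn-wt replicate 2.

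Blood gave nearly no barcodes of this kind. The circulating cells came from 2 Nalcn-wt, 4 Nalcn-het and 4 Nalcn-null libraries, 6 of males and 4 of females, at 551 to 649 days, whereas the mononuclear cells came from a single Nalcn-wt male of 120 days. In 10 libraries of non-tumour circulating ZSG+ cells (ntCZC), 1 of 2501 barcodes met the endothelial rule, or 0.0400% (exact 95% Clopper-Pearson interval 0.00101 to 0.223%). The interval pools barcodes over libraries of different genotype and sex, so it covers counting error only and not the spread between libraries. In the library of blood mononuclear cells (PBMC) 0 of 752 did, which allows a share of up to 0.399% by a limit of 3 counts, a simpler bound than the exact interval. The 1 barcode came from Nalcn-het replicate 1 and held 6037 UMIs, among them 7 of Plvap, 13 of Emcn and 2 of Ednrb. Over all ntCZC barcodes the 10 genes took 1650 UMIs, 664 of them in ntCZC Nalcn-het replicate 3, and over all PBMC barcodes 17. These counts are not scaled to depth and were not split by gene.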

How the data were processed

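The libraries were made with the 3′ v3 chemistry. The deposited matrices hold UMI counts per gene and barcode, which the authors made with Cell Ranger against mm10. The submitters' processing notes name version 2.1.1, while the file headers give 3.0.2. Organ hashtag and doublet assignments were not used here, and no doublet caller was run, but barcodes with Ptprc or Epcam were left out. The 10 genes, the lists and the tests were chosen with earlier results of these data known. The named genes were the 10 members, the genes most like each, taken from its 5 closest (1 of which is not reported here), the called genes of the lists with up to 2 of their most abundant genes, and the 3 largest rises and falls among called genes. Positions came from GENCODE on GRCm38.

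Endothelial UMIs were summed per library and tested with edgeR 4.0.16 in R 4.3.3 (TMM, filterByExpr, quasi-likelihood test, Benjamini-Hochberg at 0.05) over 9 libraries, with genotype and sex as terms. The counts were summed from 526540 to 10557841 UMIs per library. DESeq2 1.42.0 was an alternative. The procedure was also run on simulated counts, with the outcome not reported here. Those counts held no sex effect, no shared mice and no differences in cell makeup, so that run cannot speak for such structure in these libraries. Libraries of a group differed by a chi-square of at least 6.68 per gene, more than counting noise gives, which does not show that they came from separate mice. The script language was Python 3.11.15 with scipy 1.17.1.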

Additional observations from a re-analysis of the deposited data

Results flagged for a closer look

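Of 20 checks for a sample far from the others, all on the same 5 Nalcn-wt libraries, 1 stood out. It was Ednrb in Nalcn-wt replicate 4, at 137.6 CPM against 231 to 254 CPM in the other 4 wild-type libraries. Chance alone gives about 1 in 20 such checks if they are independent. These shared their libraries and were not independent. The heterozygous and null libraries were not checked in this way.

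The 2 tissue libraries whose labels contradict each other were in no comparison, and 7 of their values lay above every Nalcn-wt library. The first, from a male of 610 days, held Plvap at 1268 CPM, Emcn at 1242 CPM, Ednrb at 274 CPM and Stab2 at 161 CPM, with sinusoid list genes summed to 2676 CPM and kidney list genes to 3255 CPM. The second, from a female of 647 days, held Car4 at 244 CPM, Vwf at 299.7 CPM and Gja5 at 30.3 CPM, with aerocyte list genes summed to 798 CPM. Other values lay below every Nalcn-wt library: Car4 at 51.7 CPM in the first, and Plvap at 320 CPM, Emcn at 333 CPM and Esm1 at 57.5 CPM in the second. The part of the makeup of these 2 libraries in their values was not tested.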

How the results depend on the processing

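Of the 10 members, none was called by edgeR or DESeq2 in any of 17 alternatives per comparison. The number of genes called in null against wild type was 7 by edgeR, 32 by DESeq2, 30 with no filter on low counts, 0 with barcodes that held at least 3 of the 4 general endothelial genes, and 0 to 13 with 1 library left out. It was 0 without Nalcn-wt replicate 2, 3, 4 or 5 or either Nalcn-het library, 1 without either Nalcn-null library and 13 without Nalcn-wt replicate 1. In heterozygous against wild type it was 17 by DESeq2 and 0 to 1 with 1 library left out. In female against male it was 9 by DESeq2 and 3 to 6 with 1 library left out. Replicate numbers did not pair the libraries: of 5 same-numbered pairs, 1 had a correlation of deviations above 0.1 (range −0.31 to 0.12). With the replicate block 0 genes were called in null against wild type and 0 in female against male. That fit has nearly as many terms as libraries, so it has little power to call genes. Nalcn-wt replicates 4 and 5 share their numbers with no other library, so its female values rest on Nalcn-null replicate 3 alone. The cause of the other shifts was not tested.

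Under the block these log2 changes of members turned sign. In null against wild type Gja5 stood at 0.30 and Ackr1 at 1.56, in heterozygous against wild type Plvap at −0.14 and Gja5 at 0.11, and in female against male Plvap at 0.95, Esm1 at 0.60, Car4 at 0.31, Lyve1 at −1.86, Vwf at −1.30 and Gja5 at −0.61. With the stricter barcode quality limits (200 genes, 25% mitochondrial UMIs), Gja5 turned to 0.046 in null and 0.0078 in heterozygous libraries, and in females Ednrb turned to −0.16 and Vwf to −0.010. With 3 of the 4 genes Plvap turned to −0.046 in heterozygous libraries, and in females Ednrb turned to −0.049, Stab2 to −0.30 and Vwf to −0.0033. Without fibroblast transcripts Gja5 turned to 0.027 and Ackr1 to 0.013 in null libraries. Without the sex covariate Emcn turned to −0.043 in heterozygous libraries, and with wild-type libraries alone Ednrb turned to −0.042 and Stab2 to −1.09 in females.

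Leaving out 1 library at a time, log2 changes that turned sign ranged as follows. In null against wild type they ran from −0.44 to 0.049 for Ednrb, −2.97 to 1.48 for Stab2, −0.094 to 0.65 for Lyve1, −0.19 to 0.38 for Gja5 and −0.47 to 0.58 for Ackr1. In heterozygous against wild type they ran from −0.049 to 0.34 for Plvap, −0.31 to 0.47 for Emcn, −0.30 to 0.90 for Esm1, −0.56 to 0.93 for Car4, −0.87 to 1.64 for Stab2, −0.10 to 0.77 for Vwf and −0.23 to 0.055 for Gja5. In female against male they ran from −0.44 to 0.13 for Plvap, −0.024 to 0.62 for Emcn, −0.84 to 0.15 for Esm1, −0.14 to 0.10 for Car4, −0.33 to 0.40 for Ednrb, −1.13 to 1.24 for Stab2, −0.30 to 1.02 for Lyve1, −0.78 to 0.46 for Vwf, −0.46 to 0.28 for Gja5 and −1.20 to 0.10 for Ackr1. Plvap, Emcn, Esm1, Car4 and Vwf kept their sign in null against wild type under all 17 alternatives. The median co-detection ratio of Car4 and Ednrb was 3.36 when thinned to 500 UMIs and 2.12 unthinned. Mean CPM of every member moved by less than 1 SD in all alternatives run. Where 1 heterozygous or null library was left out, the lone library is assumed to vary like the other groups.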
